A study of Mus musculus with 9 samples.

Results

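The 10 genes described here are targets of the transcription factor p53, followed in esophagus taken at birth (postnatal day 0) from mice with and without the related factor p63. They were Cdkn1a, Mdm2, Pmaip1, Bbc3, Bax, Fas, Ccng1, Gadd45a, Sesn2 and Zmat3, and they were found as all non-control probes that carry these names on the array. That gave 15 probes for 10 genes, of 41174 non-control probes and 22616 genes tested. Each of the 10 genes had at least 1 probe well above background on all 9 arrays, so all 10 passed the filter on dim probes. There were 3 groups, all given as C57BL/6J in background. They were p63-/-;Cdx2 mice (n = 2 here), whose transgene puts Cdx2 under the villin promoter according to the series title, p63-/- mice (n = 3) and wild type mice (n = 4). Below they are called the Cdx2-bearing knockout, the plain knockout and the wild type. Trp63 encodes p63, which stratified squamous epithelium needs to form, while Cdx2 is a master regulator of intestinal identity and the villin promoter is active in intestinal epithelium. Each sample was labelled with Cy5 and hybridised with Cy3-labelled reference RNA pooled from 11 mouse cell lines, with no dye swap, and a value below is a log2 ratio of sample over reference unless a channel is named. The cell type label names epithelium, whereas RNA was prepared from esophageal tissue, and in bulk RNA fewer cells of a type and less RNA per cell cannot be told apart.

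p53 is held at a low level by the ubiquitin ligase MDM2 and accumulates when DNA is damaged or when oncogenes, oxidants or nutrient stress act on a cell. It then binds response elements made of a pair of decamers and raises the transcription of genes for cell cycle arrest, apoptosis, DNA repair and metabolic control, and of Mdm2 itself, which closes a feedback loop. p63 belongs to the same protein family and recognises closely related elements, and in stratified epithelia it is abundant in basal cells.

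The promoters of 4 of the 10 genes are shown because they hold a pair of p53 decamers close to the start site. Promoter windows of 300 bases (250 before and 50 after the start) came from RefSeq on GRCm38.p6, and 8 of the 10 genes had at least 1 window. The p53 response element decamer was searched on both strands, which are equivalent because the motif is palindromic. A pair was counted where neighbouring decamers lay at most 13 bases apart with at most 2 mismatches in all and an intact C and G core, and pairs could overlap. An exact decamer was present in 8.36% and a pair in 4.09% of all 32841 promoter windows. Among the 8 genes, 5 had an exact decamer (Cdkn1a, Mdm2, Bax, Ccng1 and Gadd45a) and 4 had a pair. The 250 bases before each start are given 5′ to 3′ on the strand of the gene, with the decamers of a pair in capitals. They are chr17:29090729-29090978 on the plus strand for Cdkn1a, and, on the minus strand, chr7:45466899-45467148 for Bax, chr11:40755287-40755536 for Ccng1 and chr6:67037408-67037657 for Gadd45a.
Cdkn1a: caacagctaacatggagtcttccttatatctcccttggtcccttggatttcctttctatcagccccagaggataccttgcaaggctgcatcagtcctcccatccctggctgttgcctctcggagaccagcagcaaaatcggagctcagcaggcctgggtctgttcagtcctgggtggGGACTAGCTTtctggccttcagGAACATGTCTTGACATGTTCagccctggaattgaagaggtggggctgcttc
Bax: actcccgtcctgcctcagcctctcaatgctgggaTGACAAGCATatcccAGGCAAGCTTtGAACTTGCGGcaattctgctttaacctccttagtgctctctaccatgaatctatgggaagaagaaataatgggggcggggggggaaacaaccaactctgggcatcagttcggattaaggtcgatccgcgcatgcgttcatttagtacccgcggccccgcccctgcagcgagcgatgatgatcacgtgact
Ccng1: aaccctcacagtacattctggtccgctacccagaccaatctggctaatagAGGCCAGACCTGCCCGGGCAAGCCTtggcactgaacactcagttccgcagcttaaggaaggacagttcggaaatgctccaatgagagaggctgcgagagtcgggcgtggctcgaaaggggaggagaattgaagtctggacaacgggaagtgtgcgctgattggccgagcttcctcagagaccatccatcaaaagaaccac
Gadd45a: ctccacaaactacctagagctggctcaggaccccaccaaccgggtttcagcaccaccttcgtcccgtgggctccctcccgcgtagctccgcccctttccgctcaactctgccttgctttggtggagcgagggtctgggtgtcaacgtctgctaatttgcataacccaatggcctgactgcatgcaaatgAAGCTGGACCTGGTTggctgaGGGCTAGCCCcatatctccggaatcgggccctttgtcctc
In the Cdkn1a window shown, a pair with 0 mismatches and a spacer of 12 bases began 73 bases before the start. A pair with 1 mismatch and no spacer began 51 bases before it. Cdkn1a has another annotated start, whose window (chr17:29093519-29093818) held 0 exact decamers and 0 pairs. The pair of Ccng1 with 1 mismatch and no spacer began 195 bases before the start, and the pairs of Bax and Gadd45a had 2 mismatches each. A match is a description of letters and not a measured binding site, and no match says nothing of elements outside these windows.

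The sample channel of an array had 30018 to 33228 probes well above background. Channel signals given below were rebuilt from the log2 ratio and the mean signal of both dyes, so both dyes enter each. The 3 genotypes came on 3 slides scanned apart, so slide, scan and genotype cannot be told apart. The reference RNA was the same material on every array, though its rebuilt channel holds both dyes. Its channel differed between plain knockout and wild type arrays for 4018 of 22616 genes (17.8%), between the Cdx2-bearing knockout and the plain knockout for 3074 (13.6%) and between the Cdx2-bearing knockout and the wild type for 87 (0.385%), at an adjusted p under 0.05 in limma with Benjamini-Hochberg adjustment, the threshold for every call below. Wild type replicate 4 carries p63-/- in its source name, while its title, genotype and description say wild type. Its log2 ratio of Krt14, a keratin of basal squamous cells, was 1.31, within the wild type range of 1.02 to 1.31 and above the -1.48 to -0.99 of both knockout groups. Differences of single genes called by the log ratio against the wild type are also given without it. By the log ratio, 0 of the 10 targets were then called in any comparison. Calls in a channel alone were not refitted without it.

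Trp63, the targeted gene, had log2 ratios of 3.37 and 3.09 in the Cdx2-bearing knockout, 2.74, 2.73 and 2.73 in the plain knockout and 3.53, 3.78, 4.34 and 4.13 in the wild type. It was lower in the plain knockout than in the wild type (difference -1.21, SE 0.18, limma adjusted p = 0.0218), and which exons were deleted is not given in the sources used here. The call held in 4 of 9 fits that each leave out 1 array and was absent without wild type replicate 4 (-1.15, limma adjusted p = 0.086). It was also absent with the mean of all Trp63 probes (-0.48, limma adjusted p = 0.319) and with the background model fitted on all spots (-0.97, limma adjusted p = 0.0746). For the Cdx2-bearing knockout against the wild type the difference was -0.72 at the brightest probe (limma adjusted p = 0.0967), where its 2 arrays were between the other groups, and 0.03 with the mean of all Trp63 probes (limma adjusted p = 0.947). Trp53, which encodes p53, did not pass in any comparison. Its log2 ratios were -1.55 and -1.78 in the Cdx2-bearing knockout, -1.53, -1.55 and -1.63 in the plain knockout and -1.34, -1.57, -1.43 and -1.44 in the wild type. The difference was -0.22 (SE 0.09, limma adjusted p = 0.226) for the Cdx2-bearing knockout against the wild type and -0.13 (SE 0.08, limma adjusted p = 0.727) for the plain knockout against the wild type.

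Of the 10 p53 targets, 2 were lower in the Cdx2-bearing knockout than in the wild type (Cdkn1a and Pmaip1), 1 was lower in the plain knockout than in the wild type (Pmaip1), and 0 passed between the Cdx2-bearing knockout and the plain knockout. None was called higher. Over all genes, the share called was 3.59% (811 of 22616) for the Cdx2-bearing knockout against the wild type and 0.814% (184 of 22616) for the plain knockout against the wild type, with 2.41% and 0.712% called lower. Between the Cdx2-bearing knockout and the plain knockout 0 of 22616 genes were called (0%), while 3178 (14.1%) had an unadjusted p under 0.05. At that unadjusted threshold 3 of the 10 targets passed in each comparison, against 21.5% of all genes for the Cdx2-bearing knockout against the wild type, 14.1% for it against the plain knockout and 9.18% for the plain knockout against the wild type. In the sample channel alone, 2 targets were called for the Cdx2-bearing knockout against the wild type (2.9% of all genes, 1.96% lower), 0 for it against the plain knockout (0.301%, 0.221% lower) and 1 for the plain knockout against the wild type (1.98%, 1.15% lower), and each called target was lower. The median difference of the 10 targets was -0.16, -0.15 and 0.03 for the Cdx2-bearing knockout against the wild type, for the Cdx2-bearing knockout against the plain knockout and for the plain knockout against the wild type. Beside it, the median of all genes was -0.02, -0.03 and 0.01 in the same order. The 2 comparisons with the wild type share its 4 arrays, so that a fall in both is not a repeated observation.

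**Figure D1:**
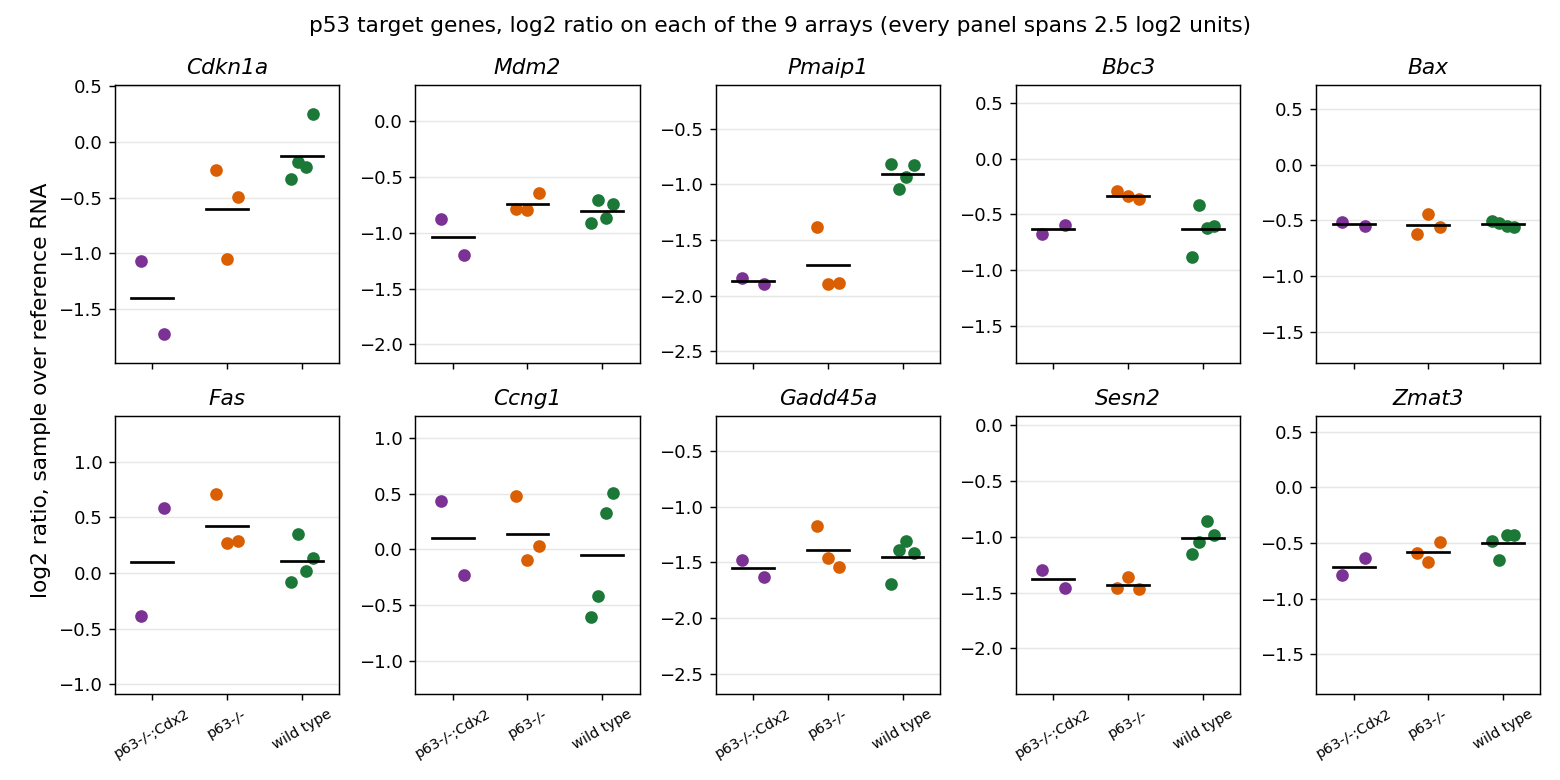
Log2 ratio of sample over reference RNA (vertical axis) for each of the 10 p53 target genes on each of the 9 arrays, with groups on the horizontal axis, points as arrays and bars as group means. Pmaip1 lies between -1.90 and -1.38 on all p63-/- arrays with or without Cdx2 and between -1.04 and -0.82 in the wild type, and Bax spans 0.18 over all arrays.

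Cdkn1a encodes p21, the inhibitor of cyclin-dependent kinases through which p53 arrests the cell cycle. Its log2 ratios were -1.07 and -1.73 in the Cdx2-bearing knockout, -0.26, -1.05 and -0.50 in the plain knockout and -0.33, -0.18, -0.23 and 0.25 in the wild type. By the log ratio both arrays with Cdx2 were below every other array, the higher of them by a small margin, while the plain knockout reached from within the wild type range down to the level of the higher array with Cdx2. Cdkn1a was 2.42-fold lower in the Cdx2-bearing knockout than in the wild type (difference -1.28, SE 0.26, limma adjusted p = 0.0401). The call was absent where the background model used all spots of wild type replicate 3, including 6 with aberrant local background (limma adjusted p = 0.0617). It was also absent with the scanner's processed signals (limma adjusted p = 0.0683), the deposited value table (0.0684) and a fit of those 2 groups alone (0.0532). The sample channel alone gave -1.29 (limma adjusted p = 0.0464), and the reference channel differed by -0.01. The difference between the Cdx2-bearing knockout and the plain knockout was -0.80 (95% interval -1.43 to -0.16, limma adjusted p = 0.299). In the sample channel these groups overlapped, with 10.54 and 9.94 in the Cdx2-bearing knockout and 11.23, 10.43 and 11.03 in the plain knockout, and the reference channel differed by 0.14 (limma adjusted p = 0.0442). The difference between the plain knockout and the wild type was -0.48 (interval -1.01 to 0.05, limma adjusted p = 0.598). The call did not hold in 6 of 9 fits that each leave out 1 array. Without wild type replicate 4, whose source name differs, it was -1.15 (adjusted p = 0.0945), without the second array with Cdx2 -0.95 (adjusted p = 0.136), and without wild type replicates 1, 2 or 3 or plain knockout replicate 3 it was -1.35, -1.29, -1.31 and -1.28 (limma adjusted p = 0.0534, 0.092, 0.0759 and 0.0714). Over all 10 targets Cdkn1a had the widest range, 1.98 over the 9 arrays, which is wider than that of 96.9% of all genes, and its pooled SD within groups was 0.35.

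Markers of several cell types were also lower in the Cdx2-bearing knockout than in the wild type, and cell cycle genes were higher. Plain knockout replicate 1, with Cdkn1a at -0.26 and within the wild type range, had the lowest basal squamous sum of all 9 arrays (53013). Its suprabasal squamous sum (14511) was the highest of both knockout groups. Plain knockout replicates 2 and 3 had suprabasal sums of 8127 and 9057, with Cdkn1a at -1.05 and -0.50. Of 8 basal squamous markers, 3 were called lower in the Cdx2-bearing knockout against the wild type, and their summed sample signal was 53847 to 62362 in the Cdx2-bearing knockout, 53013 to 70674 in the plain knockout and 266832 to 343013 in the wild type. Of 8 suprabasal squamous markers 7 were called lower there, with sums of 5031 to 9521 in the Cdx2-bearing knockout, 8127 to 14511 in the plain knockout and 44194 to 54813 in the wild type. Of 20 cell cycle genes, Pcna, the replication clamp, and Ccne2, which encodes cyclin E2, rose in the Cdx2-bearing knockout against the wild type, by 0.80 (SE 0.16, limma adjusted p = 0.0366) and 0.90 (SE 0.19, limma adjusted p = 0.0414), called in 3 and 2 of 9 fits that leave out 1 array and not without wild type replicate 4 (0.77 and 0.87, limma adjusted p = 0.0994 and 0.107). Neither passed with the background model fitted on all spots (limma adjusted p = 0.0549 and 0.0722) or with the scanner's processed signals (0.0561 and 0.0543). The median of the cell cycle list was 0.64 against -0.02 for all genes. Its summed signal was 279856 to 346907 in the Cdx2-bearing knockout, 148475 to 237320 in the plain knockout and 168473 to 226751 in the wild type. The squamous sums were low in both knockout groups, and the cell cycle sums were highest on the 2 arrays with Cdx2. Of 8 smooth muscle markers 1 was called lower in the Cdx2-bearing knockout against the wild type, with sums of 278984 to 339098 in the Cdx2-bearing knockout, 307995 to 334343 in the plain knockout and 388029 to 694661 in the wild type. Of 8 simple epithelium markers 1 was called lower there, with overlapping sums. Fibroblast and adipocyte markers had medians of -0.50 and -0.59 there with 0 called. Fibroblast sums were 810812 to 984736 in the Cdx2-bearing knockout, 1048530 to 1220690 in the plain knockout and 961429 to 1203850 in the wild type. Adipocyte sums overlapped, with 49914 and 100024 in the Cdx2-bearing knockout, 80800 to 407469 in the plain knockout and 80223 to 134818 in the wild type. The part of any of these in the level of Cdkn1a was not tested.

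By the root mean square difference of centred log2 ratios over the 9 arrays, the 5 genes closest to Cdkn1a were Mapk8ip1 (0.17), Rgma (0.25), Fam83e (0.25), Barx2 (0.25) and Aldh1a3 (0.25). The SD of Cdkn1a itself over the arrays was 0.57. For Mdm2 (SD 0.15) they were Ppp1r3f (0.05), Ttyh3 (0.06), Terf2ip (0.07), Polr3gl (0.07) and Rtl8c (0.07).

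Mdm2 encodes the ubiquitin ligase that degrades p53, and is itself induced by p53. Its brighter probe (chr10:117126278-117126337, mm9, minus strand) gave -0.87 and -1.20 in the Cdx2-bearing knockout, -0.78, -0.80 and -0.65 in the plain knockout and -0.92, -0.71, -0.87 and -0.74 in the wild type. The plain knockout lay inside the wild type range except for 1 higher array, and 1 array with Cdx2 was below all others. No comparison passed, with differences of -0.23 (95% interval -0.48 to 0.03) for the Cdx2-bearing knockout against the wild type, -0.29 (-0.56 to -0.03) against the plain knockout, and 0.07 (-0.16 to 0.29) for the plain knockout against the wild type (limma adjusted p = 0.28, 0.329 and 0.894). The second probe, spotted 10 times per array, gave -0.13, -0.21 and 0.09 in the same order. At the brighter probe the reference channel differed by -0.16 between the Cdx2-bearing knockout and the plain knockout (limma adjusted p = 0.0398). It differed by 0.16 between the plain knockout and the wild type (limma adjusted p = 0.0164).

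Pmaip1 encodes NOXA, a BH3-only protein that promotes apoptosis by binding MCL1. Its log2 ratios were -1.84 and -1.89 in the Cdx2-bearing knockout, -1.38, -1.90 and -1.88 in the plain knockout and -0.82, -1.04, -0.94 and -0.83 in the wild type. All 5 arrays of both knockout groups were below all 4 wild type arrays. Pmaip1 was 1.94-fold lower in the Cdx2-bearing knockout than in the wild type (difference -0.96, SE 0.15, limma adjusted p = 0.0167). It was 1.76-fold lower in the plain knockout than in the wild type (difference -0.81, SE 0.13, limma adjusted p = 0.0315), a call that was absent with the background model fitted on all spots (limma adjusted p = 0.0625), with scaling between arrays (0.0509), with the processed signals (0.053) and with the value table (0.0531). Between the Cdx2-bearing knockout and the plain knockout the difference was -0.14 (95% interval -0.50 to 0.21, limma adjusted p = 0.699).

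The 2 channels are given apart here. For the Cdx2-bearing knockout against the wild type, the sample channel of Pmaip1 differed by -0.88 (limma adjusted p = 0.0221) and the reference channel by 0.08 (limma adjusted p = 0.521). For the plain knockout against the wild type the sample channel differed by -0.60 and did not pass (limma adjusted p = 0.0598), while the reference channel was higher by 0.21 on the plain knockout arrays (limma adjusted p = 0.011). The sample channel values were 10.32 and 10.20 in the Cdx2-bearing knockout, 10.82, 10.39 and 10.39 in the plain knockout and 11.28, 11.00, 11.09 and 11.17 in the wild type on the log2 signal scale, again without overlap. The part of the reference channel in the lower log2 ratio of the plain knockout was not tested, and both dyes enter each rebuilt channel. Of the 10 targets, 8 differed in the reference channel between plain knockout and wild type arrays (6 higher, 2 lower), where 17.8% of all genes did. Between the Cdx2-bearing knockout and the plain knockout 4 did (2 higher, 2 lower), where 13.6% of all genes did. Between the Cdx2-bearing knockout and the wild type 0 did. The squamous and smooth muscle sums given above were, like Pmaip1, lower in both knockout groups, each without overlap with the wild type. Their part in the level of Pmaip1 was not tested.

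**Figure D2:**
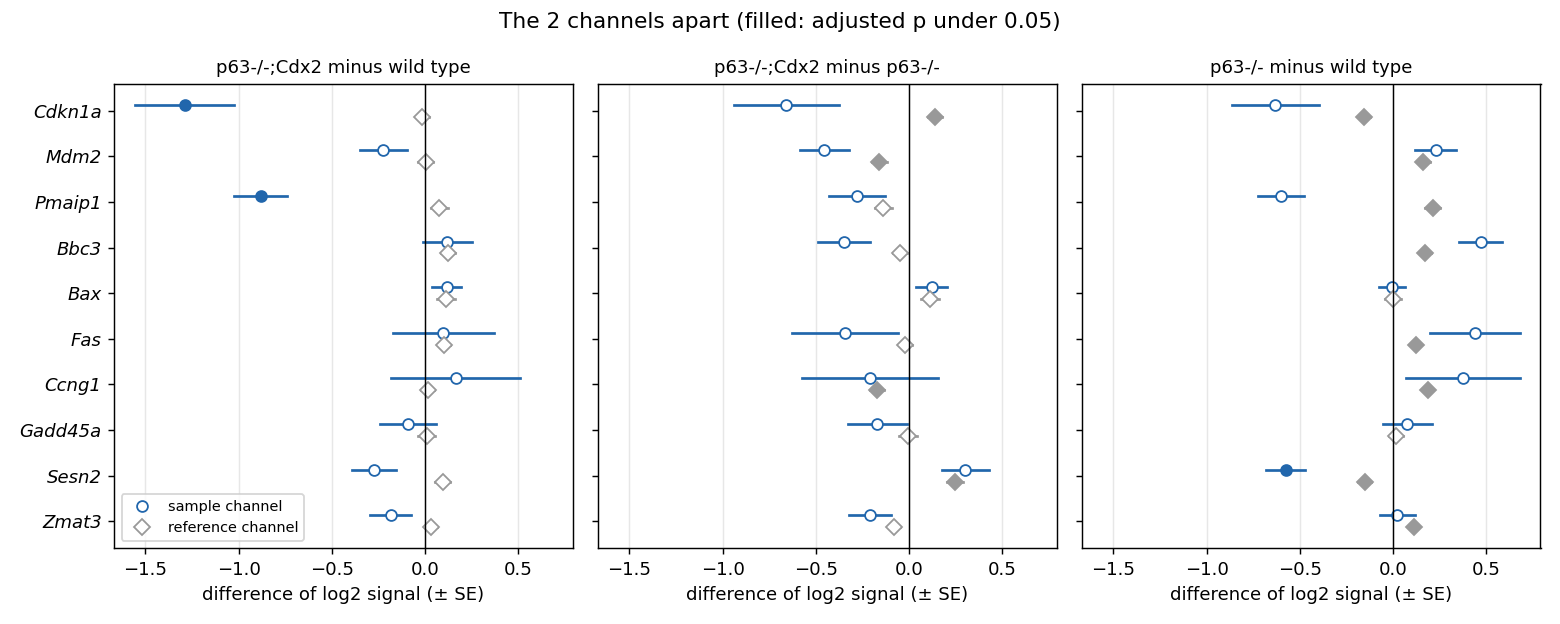
Difference of the log2 signal (horizontal axis, bars ± SE of the limma fit) of each target gene (rows) in the sample channel (circles) and the reference channel (diamonds) for the 3 comparisons, filled where the adjusted p was under 0.05. For Pmaip1 the reference channel sits at 0.21 for the plain knockout against the wild type and at 0.08 for the Cdx2-bearing knockout against the wild type.

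The calls of Pmaip1 were near the threshold. Against the wild type, the Cdx2-bearing knockout lost the call without either of its own arrays (-0.99 and -0.93, limma adjusted p = 0.0556 and 0.0576) and without wild type replicate 4 (-0.93, limma adjusted p = 0.055), and kept it in the other 6 of 9 fits. The plain knockout kept it in 3 of 9 fits. It lost the call without wild type replicates 1, 2, 3 or 4 (-0.78, -0.86, -0.82 and -0.79, limma adjusted p = 0.0829, 0.0674, 0.0945 and 0.113) and without plain knockout replicates 2 or 3 (-0.73 and -0.73, limma adjusted p = 0.149 and 0.152). Without plain knockout replicate 1, the array with the highest ratio of that group, the difference was -0.98 (limma adjusted p = 0.00439). That array also stood apart in its markers. Its summed adipocyte signal was 407469, against 80800 and 91742 on the other plain knockout arrays, its immune sum was 299664, against 108237 and 103128, and its immediate early sum was 114431, against 65556 and 69238. Their part in its level of Pmaip1 was not tested.

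**Figure D3:**
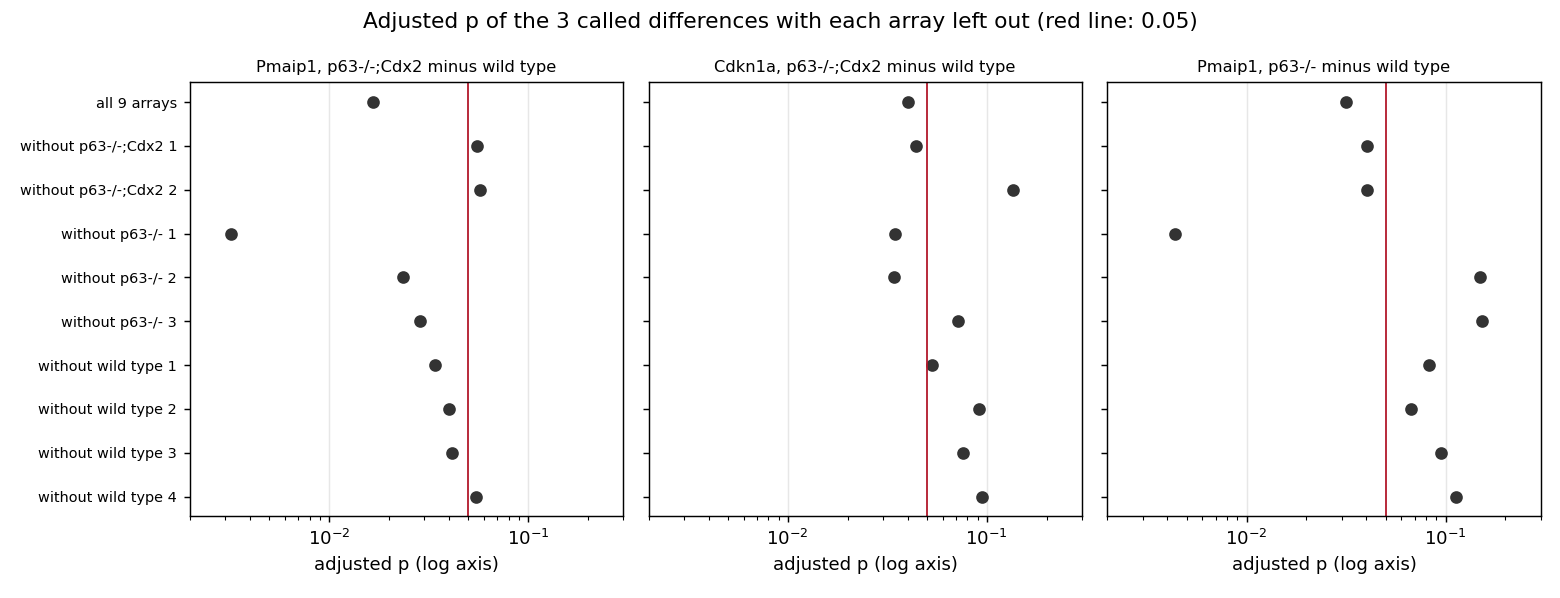
Adjusted p (horizontal log axis) of the 3 called differences with all 9 arrays and with each array left out (rows), where points right of the red line at 0.05 are not called. For Pmaip1 in the plain knockout against the wild type the values run between 0.00439 and 0.152.

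The other apoptosis genes among the 10 did not pass in any comparison. Bbc3 encodes PUMA, a further BH3-only protein, and had -0.68 and -0.60 in the Cdx2-bearing knockout, -0.29, -0.34 and -0.37 in the plain knockout and -0.89, -0.41, -0.63 and -0.60 in the wild type. All 3 plain knockout arrays were above every array of the other groups, whereas Pmaip1 was lower in the plain knockout. The difference of Bbc3 was 0.30 for the plain knockout against the wild type (95% interval 0.06 to 0.54, limma adjusted p = 0.406), -0.30 for the Cdx2-bearing knockout against the plain knockout (-0.59 to -0.02, limma adjusted p = 0.341) and -0.00 against the wild type. Its reference channel was higher by 0.17 on the plain knockout than on the wild type arrays (limma adjusted p = 0.0117).

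Bax, the effector that permeabilises mitochondria, was the most even of the 10. Its log2 ratios were -0.52 and -0.55 in the Cdx2-bearing knockout, -0.63, -0.44 and -0.56 in the plain knockout and -0.51, -0.53, -0.56 and -0.56 in the wild type. The 3 groups overlapped throughout, and only 2.45% of all genes had a smaller range than its 0.18. The 95% interval of its difference was -0.16 to 0.17 for the Cdx2-bearing knockout against the wild type and -0.15 to 0.14 for the plain knockout against the wild type, and its probe was spotted 10 times per array.

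Fas, the death receptor, had -0.39 and 0.58 in the Cdx2-bearing knockout, 0.71, 0.27 and 0.29 in the plain knockout and -0.08, 0.34, 0.02 and 0.14 in the wild type. An array with Cdx2 was below every other array and its partner was above all wild type arrays, and they also lay apart at the dimmer probe, with -0.47 and 0.94. The difference between the Cdx2-bearing knockout and the wild type was -0.01 with an interval from -0.59 to 0.58, so a moderate change in either direction was not detectable with these arrays.

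Ccng1 encodes cyclin G1, which acts in the feedback between p53 and MDM2. Its brighter probe read 0.43 and -0.23 in the Cdx2-bearing knockout, 0.48, -0.09 and 0.03 in the plain knockout and -0.61, -0.42, 0.32 and 0.50 in the wild type. The wild type itself fell into 2 low and 2 high arrays, which the second probe repeated with -1.63, -1.50, -0.79 and -0.70, and the pooled SD within groups of 0.46 was the highest of the 10 targets. Summed skeletal muscle markers were 1178670 and 405546 in the Cdx2-bearing knockout, 1488950, 743449 and 1147960 in the plain knockout and 351701, 854110, 1465620 and 1489230 in the wild type. The arrays with low Ccng1 within each group had the lower sums, and the part of these cells in Ccng1 was not tested. No difference passed, and the interval for the plain knockout against the wild type ran from -0.50 to 0.88.

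Gadd45a, a stress-induced gene of growth arrest and DNA damage signalling, read -1.48 and -1.63 in the Cdx2-bearing knockout, -1.17, -1.46 and -1.54 in the plain knockout and -1.70, -1.39, -1.31 and -1.42 in the wild type. The groups overlapped in all 3 comparisons. The differences were -0.10 (limma adjusted p = 0.718), -0.16 (limma adjusted p = 0.631) and 0.06 (limma adjusted p = 0.923) for the Cdx2-bearing knockout against the wild type, against the plain knockout, and for the plain knockout against the wild type.

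Sesn2 encodes sestrin 2, which restrains mTORC1 under nutrient and oxidative stress. The brighter of its probes (chr4:132047974-132048033, mm9, minus strand) read -1.30 and -1.46 in the Cdx2-bearing knockout, -1.46, -1.36 and -1.47 in the plain knockout and -1.15, -1.05, -0.85 and -0.98 in the wild type. All arrays of both knockout groups were below the wild type. The difference missed the threshold, with -0.37 (SE 0.10, limma adjusted p = 0.082) for the Cdx2-bearing knockout and -0.42 (SE 0.09, limma adjusted p = 0.097) for the plain knockout, each against the wild type. In the sample channel alone the plain knockout passed with -0.57 (limma adjusted p = 0.0339) and the Cdx2-bearing knockout did not, with -0.27 (limma adjusted p = 0.229). The reference channel was lower on the plain knockout arrays than on the wild type arrays (difference -0.15, limma adjusted p = 0.0259).

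The second probe of Sesn2 (chr4:132048858-132048917) did not repeat the difference in the plain knockout. It read -1.36 and -1.34 in the Cdx2-bearing knockout, -0.92, -1.06 and -1.11 in the plain knockout and -1.23, -1.15, -0.94 and -1.05 in the wild type. There the plain knockout overlapped the wild type (difference 0.06, SE 0.09), and the Cdx2-bearing knockout was lower than both (-0.26 and -0.32), with adjusted p over all probes of 0.171 and 0.264 in limma. A level of Sesn2 in the plain knockout therefore depended on the probe.

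Zmat3, an RNA-binding zinc finger protein, read -0.79 and -0.64 in the Cdx2-bearing knockout, -0.59, -0.67 and -0.49 in the plain knockout and -0.48, -0.65, -0.42 and -0.43 in the wild type. The groups overlapped in every comparison, and the difference between the Cdx2-bearing knockout and the wild type was -0.22 (95% interval -0.44 to 0.003, limma adjusted p = 0.238). Its second probe was well above background on 3 of 9 arrays and is not read further.

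**Figure D4:**
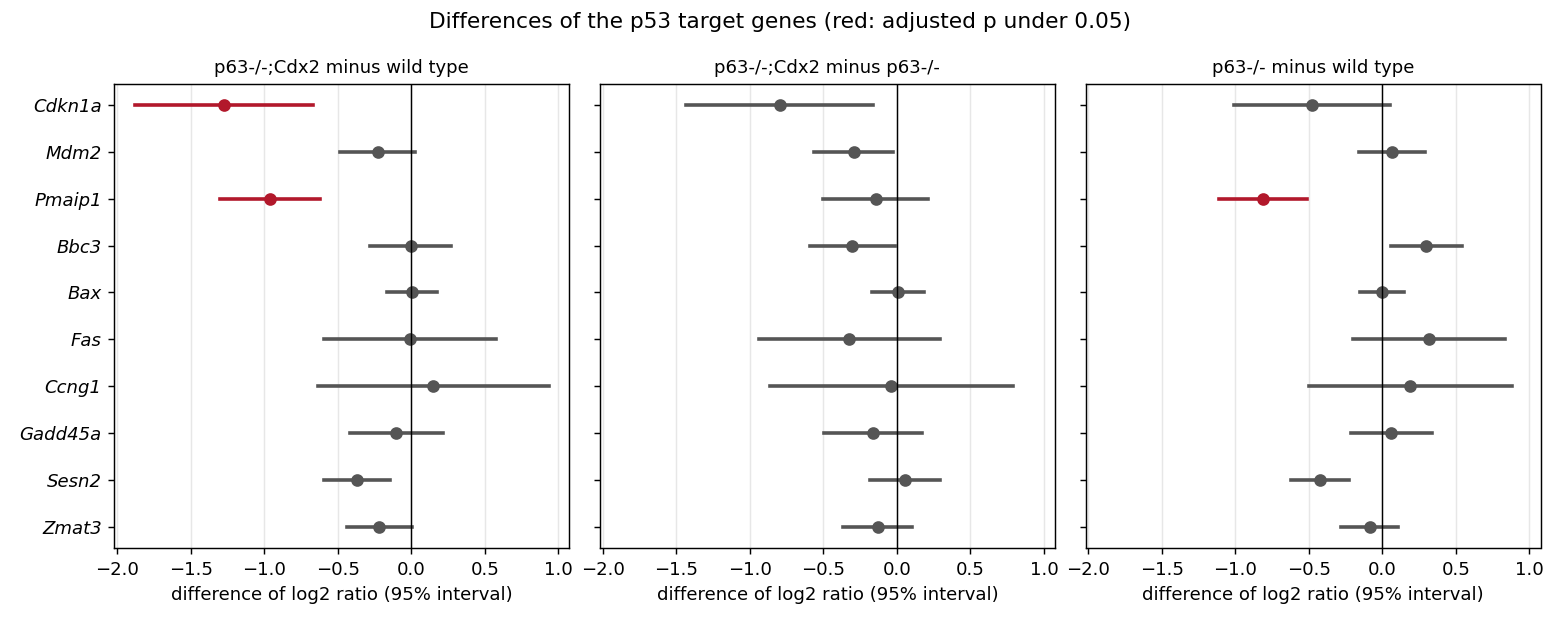
Difference of the log2 ratio (horizontal axis) with its 95% interval from the limma fit for each target gene (rows) in the 3 comparisons, red where the adjusted p over all genes was under 0.05. Red are Cdkn1a at -1.28 and Pmaip1 at -0.96 for the Cdx2-bearing knockout against the wild type and Pmaip1 at -0.81 for the plain knockout against the wild type.

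Groups without overlap were counted beside the calls. In the Cdx2-bearing knockout against the wild type 3 of the 10 targets did not overlap, all lower (Cdkn1a, Pmaip1 and Sesn2), where 31% of all genes did not overlap and 16.9% were lower. In the Cdx2-bearing knockout against the plain knockout 3 did not overlap, again all lower (Cdkn1a, Mdm2 and Bbc3), against 32.1% of all genes and 18% lower. In the plain knockout against the wild type 3 did not overlap (Pmaip1 and Sesn2 lower, Bbc3 higher), against 11.9% of all genes and 6.12% lower.

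Beyond these 10, the measured p53 targets of other lists comprised 38 genes, namely 12 of cell cycle arrest and feedback, 12 of apoptosis and 14 of DNA repair and metabolism. Of the 38, 1 was called lower in the Cdx2-bearing knockout against the wild type and in the plain knockout against the wild type, 0 between the Cdx2-bearing knockout and the plain knockout, and none higher. That gene was Perp, a p53 target that also belongs to the p63 programme of stratified epithelia, where its product sits in desmosomes. Perp had log2 ratios of 0.21 and 1.28 in the Cdx2-bearing knockout, 0.69, 1.30 and 0.95 in the plain knockout and 2.77, 2.97, 3.12 and 3.04 in the wild type. It fell in the Cdx2-bearing knockout (difference -2.23, SE 0.28, limma adjusted p = 0.00667) and in the plain knockout (difference -1.99, SE 0.25, limma adjusted p = 0.00818), each against the wild type, and kept both calls in all 9 fits that leave out 1 array, with adjusted p up to 0.0271 and 0.0492. The list medians were between -0.12 and 0.10 in the 3 comparisons.

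No other gene of these lists passed by the log ratio. Among arrest and feedback genes, Cd82, a tetraspanin, differed by -0.43 (limma adjusted p = 0.0697) and Phlda3, an inhibitor of AKT, by -0.68 (limma adjusted p = 0.101) in the Cdx2-bearing knockout against the wild type. Among repair and metabolism genes, Abhd4 differed by -0.62 (limma adjusted p = 0.0695) and Ddb2, a sensor of ultraviolet damage, by 0.31 (limma adjusted p = 0.0796). Cd82, Phlda3 and Abhd4 thus had negative differences and Ddb2 a positive one. In the sample channel alone, Cd82 was called lower in the Cdx2-bearing knockout against the wild type (-0.60, limma adjusted p = 0.0216), and Sfn, which encodes the arrest protein 14-3-3 sigma, in the plain knockout against the wild type (-0.42, limma adjusted p = 0.047). The log ratio of Sfn differed by -0.24 there (limma adjusted p = 0.396).

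Of 14 regulators of p53, Ppp1r13l, which encodes the inhibitor iASPP, was called lower in the Cdx2-bearing knockout against the wild type, and none passed in the other comparisons. It read -0.70 and -0.67 in the Cdx2-bearing knockout, -0.16, -0.31 and -0.22 in the plain knockout and -0.22, -0.12, 0.18 and 0.05 in the wild type. Both arrays with Cdx2 were below all others, and the difference was -0.66 (SE 0.11, limma adjusted p = 0.024), called in 5 of 9 fits that leave out 1 array (limma adjusted p 0.0191 to 0.1) and not without wild type replicate 4 (-0.63, limma adjusted p = 0.0736). With the mean of all its probes the difference was -0.34 (limma adjusted p = 0.102), and with those 2 groups alone it also missed the threshold (limma adjusted p = 0.0578). Its sample channel differed by -0.52, which did not pass (limma adjusted p = 0.0751).

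**Figure D5:**
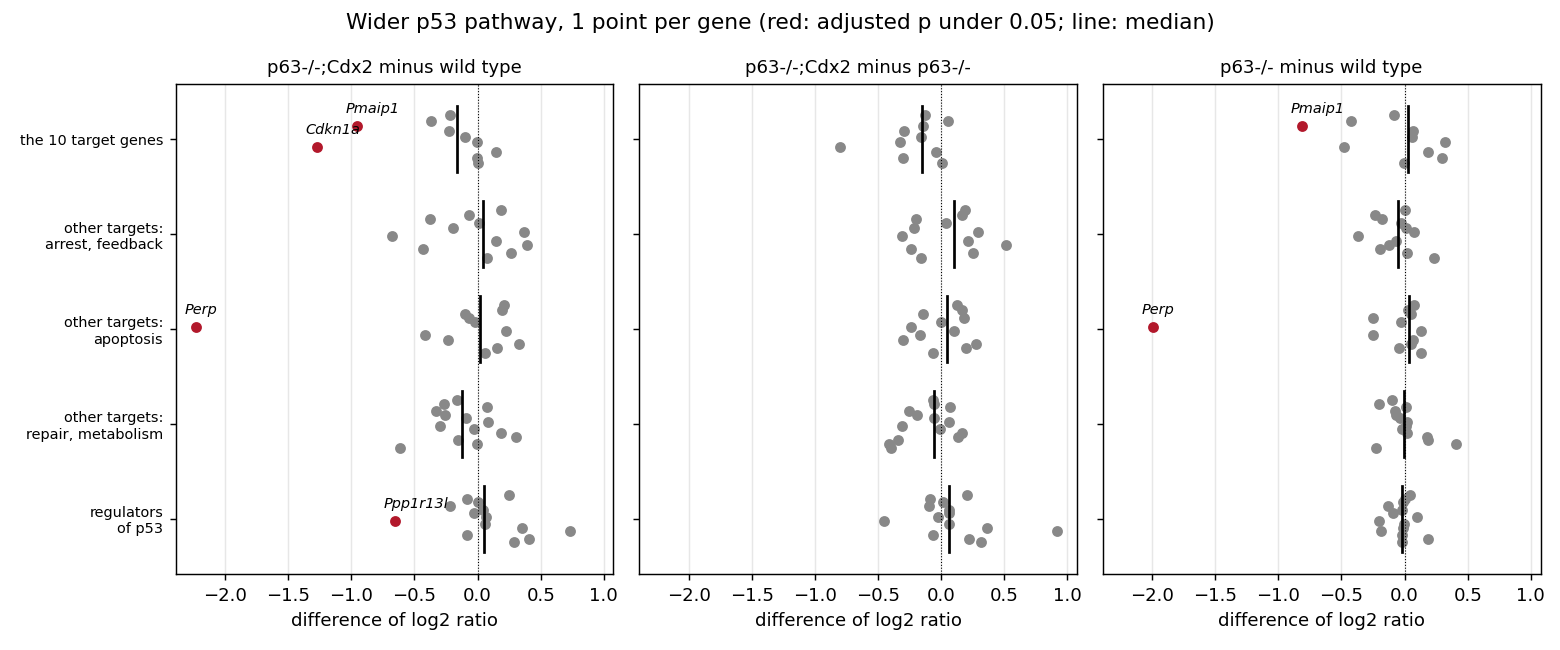
Difference of the log2 ratio (horizontal axis) of every measured gene of the 10 targets, of 3 further lists of p53 targets and of the regulators of p53 (rows) in the 3 comparisons, with list medians as lines and called genes in red. Perp lies at -2.23 and -1.99 in the comparisons with the wild type, and 37 of the 38 further targets were not called in either.

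Related lists that were not drawn up as p53 targets were read in the same fit, and they may still hold genes that p53 regulates. Of 11 genes of the BCL2 family and 6 further inhibitors of cyclin-dependent kinases, 0 passed in any of the 3 comparisons. In the Cdx2-bearing knockout against the wild type, Bcl2, which restrains apoptosis, differed by -0.26 (limma adjusted p = 0.226). The BH3-only gene Hrk was not well above background on any wild type array, and its difference is not read. Cdkn2b, the inhibitor p15, differed by -1.18 (limma adjusted p = 0.144) and Cdkn2c, the inhibitor p18, by 0.22 (limma adjusted p = 0.276). Of 12 genes of the integrated stress response and 12 immediate early genes, 0 passed, and the immediate early median was -0.45 in both comparisons of the Cdx2-bearing knockout. Of 8 heat shock genes, Hspa1a and Hspa1b were called lower in the Cdx2-bearing knockout against the wild type, with differences of -1.31 (SE 0.27, limma adjusted p = 0.0386) and -1.47 (SE 0.23, limma adjusted p = 0.0171), in 4 and 6 of 9 fits that leave out 1 array and not without wild type replicate 4 (-1.26 and -1.45, limma adjusted p = 0.102 and 0.0565). Neither passed with the background model fitted on all spots (limma adjusted p = 0.0737 and 0.0508). With the scanner's processed signals Hspa1a did not pass (limma adjusted p = 0.0518) and Hspa1b did (0.0325). With the mean of its probes Hspa1b differed by -0.91 (limma adjusted p = 0.0197). These neighbouring HSP70 genes are near-identical, so their probes may not tell them apart.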

How the data were processed

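Esophageal RNA of 9 mice was measured on 2-colour Agilent arrays. Per the file headers, Agilent Feature Extraction 10.7.3.1 wrote the deposited mean intensity and local background intensity of each spot, without subtraction. Processed intensities and log10 ratios (Cy5 over Cy3) from that software were also deposited. The submitters' processing notes name version 9.1. The deposited value table gives log2 ratios of 41267 probes. Each of its columns correlated best with its own array (r of 0.992 or more), column medians were -0.213 to -0.0281, and centring and the treatment of repeated spots are unknown. Probe positions are the files' own (mm9).

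Flagged spots (119 to 171 per array) and 1639 control spots were left out, and none was saturated. Normexp (offset 50) corrected the background and loess normalized log2 ratios within arrays. On wild type replicate 3, 6 unflagged spots had a local background far above the spot and moved the fitted normexp background of the whole array to -233 and -235 intensity units, against -10.1 to 8.81 on the other arrays. The median absolute deviation of its log2 ratios was then 0.33, against 0.54 to 0.60 on the others. Spots whose background exceeded the spot by more than 50 units were therefore left out on all arrays, which gave 0.56. This step was chosen after results without it had been seen, and 2 of the 3 calls reported for the 10 genes depend on it. Without it Pmaip1 alone of the 10 was called, in the Cdx2-bearing knockout against the wild type. The calls of Trp63 in the plain knockout and of Pcna, Ccne2, Hspa1a and Hspa1b in the Cdx2-bearing knockout were absent without it too.

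Repeated spots were averaged, the 33687 probes well above background on 2 or more arrays were kept, and the brightest probe stood for a gene. RefSeq names (GRCm38.p6) were matched by accession for 26918 probes and by symbol for 5899, and 8357 kept the file's name. Channel values were rebuilt from the loess log2 ratio and the mean log2 signal of both dyes after Aquantile normalization between arrays. Neither is therefore a measure of 1 dye only, also where a channel is read alone. All 9 arrays entered 1 model in limma 3.58.1 (R 4.3.3), with Benjamini-Hochberg adjustment over all genes at 0.05. The code was run on simulated data with independent noise per gene. That simulation held no slide or scan effect, so it says nothing of how slide and genotype coincide here. Lists were only counted. The labels call the samples biological replicates. Deviations of same-numbered arrays from their group means had correlations of -0.13 to 0.28 over 7 pairs, 2 of them above 0.1. Those of other arrays had -0.25 to 0.23 over 19 pairs, 3 of them above 0.1. After centring, the 2 arrays with Cdx2 mirror each other, so these values cannot decide whether the numbers are pairs. The numbers were not taken as pairs.

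The members and lists were chosen with earlier results of these data known. Named are the 10 members, Trp53 and Trp63, from other lists the genes that passed or else up to 2 with the lowest p in a comparison, the 5 profiles closest to Cdkn1a and to Mdm2, and defining markers of lists that moved with a member.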

Additional observations from a re-analysis of the deposited data

How the results depend on the processing

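Counts of called genes moved most. For the plain knockout against the wild type, 184 genes were called, with the spots left out by the step chosen after seeing the data. With normexp fitted on all spots, as before that step, 74 were called. There were 447 with the sample channel alone, 52 with a replicate block, 297 with only those 2 groups and as few as 84 when an array was left out. For the Cdx2-bearing knockout against the plain knockout, 0 were called, and 4 with the scanner's processed signals, 4 with the deposited value table, 68 with the sample channel, 1 with a trended and robust prior and 0 to 115 when an array was left out (115 without the first and 35 without the second array with Cdx2). For the Cdx2-bearing knockout against the wild type, 811 were called, and 398 with the processed signals, 398 with the value table, 36 with the block, 319 with normexp on all spots, 455 with only those 2 groups and 243 to 1178 when an array was left out. Of the 10 targets, the 1 call in the plain knockout became 0 with scaling between arrays, the replicate block or normexp on all spots, and 0 to 1 when an array was left out. With the processed signals, the value table or the sample channel the 1 call was Sesn2. The 2 calls in the Cdx2-bearing knockout against the wild type became 1, Pmaip1, with the processed signals, the value table, normexp on all spots or only those 2 groups, 0 with the block and 0 to 2 when an array was left out. Same-numbered samples share only a number, and no target was called with the replicate block (limma adjusted p = 0.119 and 0.156 for Pmaip1, 0.181 for Cdkn1a). Some differences that were not called changed sign, and the cause was not tested. In the plain knockout against the wild type, Bax became 0.015 with scaling, Trp53 0.026 with the mean of all probes, and Zmat3 0.025, Pcna -0.037 and Ccne2 0.024 with the sample channel. In the Cdx2-bearing against the plain knockout, Bax became -0.010 with scaling and -0.000585 with the block, Ccng1 0.073 with the block and Sesn2 -0.13 with the mean of probes. In the Cdx2-bearing knockout against the wild type, Bbc3 became 0.020 with the processed signals and the value table, 0.000228 with scaling, 0.12 with the sample channel and 0.000984 with the block, Fas 0.00122 with scaling and 0.10 with the sample channel, Bax -0.013 with the block, and Trp63 0.026 with the mean of probes, against -0.72 for its brightest probe. With an array left out, the ranges for the plain knockout against the wild type were -0.054 to 0.037 for Bax, -0.048 to 0.14 for Gadd45a, -0.050 to 0.21 for Pcna and -0.24 to 0.12 for Ccne2. Between the knockout groups they were -0.23 to 0.027 for Pmaip1, -0.033 to 0.058 for Bax, -0.37 to 0.29 for Ccng1, -0.024 to 0.14 for Sesn2, -0.81 to 0.16 for Fas, -0.78 to 0.30 for Perp and -0.20 to 0.019 for Trp53. For the Cdx2-bearing knockout against the wild type they were -0.089 to 0.068 for Bbc3, -0.011 to 0.020 for Bax, -0.18 to 0.48 for Ccng1 and -0.49 to 0.48 for Fas. The 2 arrays with Cdx2 and the shared slide per genotype limit every comparison.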
